A study of Mus musculus with 16 samples.

Results

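Endothelial cells (ECs) and Kupffer cells of the mouse liver, the scavenger cells of the hepatic sinusoid, were compared across all genes by RNA sequencing. The comparison used all 4 EC and all 4 Kupffer cell libraries among the 16 libraries of sorted liver cells. The count tables listed 47729 genes, and 15917 of them passed the filter on low counts over these 8 libraries and were tested. A gene was called shared where the mean of both cell types was at least 50 normalized CPM (counts relative to the library total, with TMM scaling over the 8 libraries) and the means lay within 2-fold, which held for 1984 genes.

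The sinusoid is the capillary of the liver, and blood from the gut passes along its wall before it reaches the hepatocytes. Its ECs are perforated by fenestrae and clear soluble macromolecules, such as hyaluronan, collagen fragments, small immune complexes and mannosylated enzymes, by clathrin-mediated endocytosis. Kupffer cells are the resident macrophages that sit in the same channel. They engulf particles, microbes and ageing red blood cells by phagocytosis, present antigen and return iron to the blood. In both cells the cargo ends in lysosomes, which a proton pump acidifies and which hydrolases fill.

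Each cell type was represented by 2 libraries under the label WT and 2 under the label KO. All mice were adult, their livers were unchallenged, and all received tamoxifen at 2 mg a day for 5 days in a row. Mice of the KO label carried floxed Zeb2 alleles, the Cdh5-CreERT2 driver, in which the promoter of the VE-cadherin gene Cdh5 controls an inducible Cre, and an eGFP reporter. Mice of the WT label were littermates without Cre that received the same tamoxifen, and their Zeb2 alleles are not given in the sources used here. Males of 8 weeks were the default in these experiments, and mRNA was as a rule examined 2 weeks after tamoxifen. Kupffer cells were sorted by F4/80 (gene Adgre1) and ECs by a pan-endothelial antigen (gene Plvap), both among the cells without vitamin A fluorescence, so that the levels of these genes are no finding. The labels do not say which libraries came from the same mouse, and the p-values measure the spread between these libraries, which may be partly technical. Values are given in the order of the numbers in the labels, with 34 and 38 (WT) and 6 and 46 (KO) for ECs, and 31 and 39 (WT) and 27 and 43 (KO) for Kupffer cells.

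Between 12872706 and 15326003 reads were counted on genes in these libraries, so that 3 counts corresponded to 0.196 to 0.233 CPM. Zeb2, the targeted gene, was not lower under the KO label in ECs, with 95.3, 86.8, 173 and 121 normalized CPM. These counts cover the whole gene, with exons outside the floxed part, so that they check the deletion only in part, and the EC groups are called by their labels. In the Kupffer cells Zeb2 measured 361, 338, 322 and 268 normalized CPM, which was higher than in every EC library, with a log2 fold change of EC over Kupffer cells of -1.47 ± 0.25 (SE) and an adjusted p of 0.00224 by edgeR's quasi-likelihood test. The defining markers went with the sorted identities. Of 16 pan-endothelial markers 15 were higher in ECs and none in Kupffer cells, and all 18 Kupffer cell markers were higher in Kupffer cells. The 18 include the sort marker Adgre1, whose direction the sort had set. Markers of the other sorted population were detected in both, and the source of these reads was not tested. Without Cdh5, which stood at 109%, the pan-endothelial markers reached in Kupffer cells a median of 4.38% of their EC level (4.61% with Cdh5). Without Cdh5 they ran from 3.04% (Tie1) to 18.6% (Pecam1). The highest median among single Kupffer cell libraries was 6.68% in KO 27, and the lowest was 2.62% in WT 31. The Kupffer cell markers reached in ECs a median of 1.51% of their Kupffer cell level, from 0.597% (Marco) to 5.92% (Slc40a1). In bulk RNA, fewer cells of a type and less RNA per cell cannot be told apart.

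Of the 15917 genes tested, 4389 differed between the cell types at an adjusted p under 0.05, which was 27.6% of them. ECs were higher for 2234 genes (14.0%) and Kupffer cells for 2155 genes (13.5%), with a median log2 fold change of 0.07 over all genes tested. The TMM factors lay between 1.073 and 1.218 in ECs and between 0.794 and 0.932 in Kupffer cells, and the split depended on this scaling. With library totals alone, 3521 genes were higher in ECs and 1644 in Kupffer cells, and the median log2 fold change rose by 0.37. A test against a 2-fold difference was passed by 2582 genes (16.2%), of which 1294 were higher in ECs and 1288 in Kupffer cells. The 4 values of one cell type lay wholly above those of the other for 5427 genes (34.1%). At 50 CPM or more there were 3406 genes in ECs and 3488 in Kupffer cells, and 2518 genes reached this level in both. Of these 2518 genes, 1984 (78.8%) lay within 2-fold, 196 were more than 2-fold higher in ECs and 338 more than 2-fold higher in Kupffer cells.

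**Figure D1:**
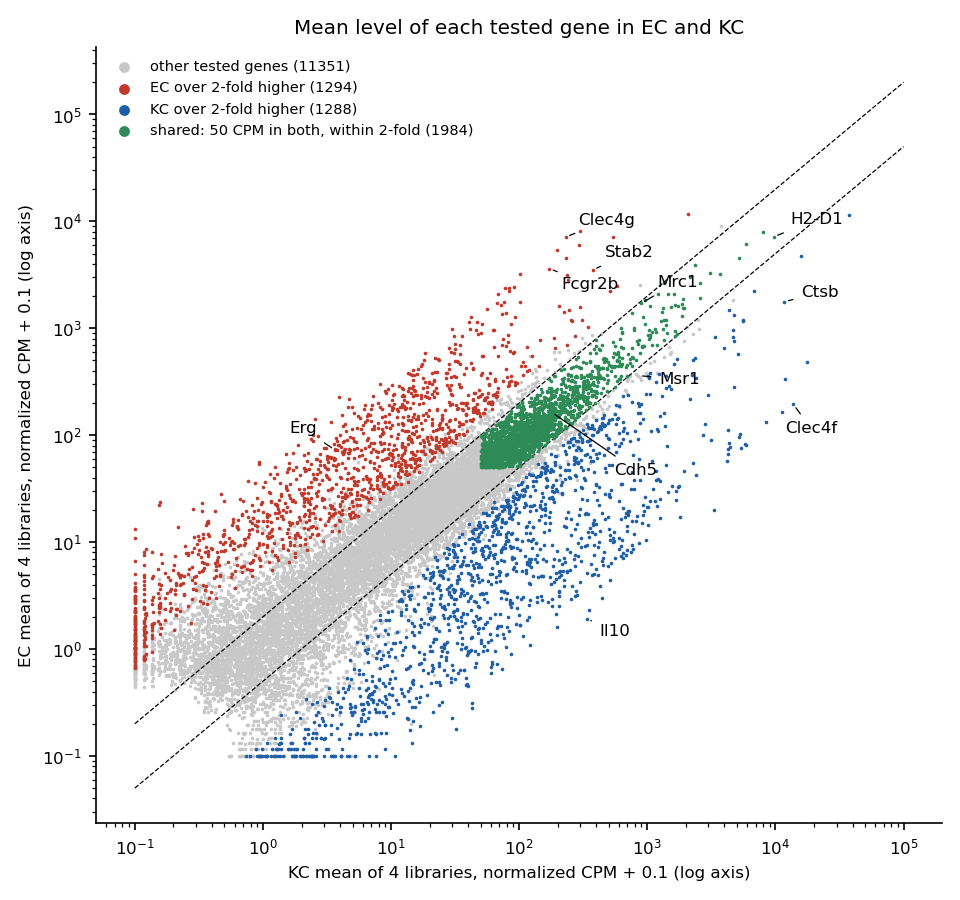
Mean normalized CPM of each of the 15917 tested genes in Kupffer cells (horizontal, log axis) and ECs (vertical, log axis), each over 4 libraries and with 0.1 added. Dashed lines mark a 2-fold difference. The 1984 shared genes form the green corner between the lines, with Mrc1 near its upper border, while Stab2 and Clec4g lie far on the EC side and Clec4f and Il10 far on the Kupffer cell side.

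Among the 4 receptors that stand for the scavenger function, Stab2 belonged to ECs, Clec4f to Kupffer cells, and Mrc1 and Msr1 to both cells at unequal levels. Stab2 (stabilin-2, chr10:86841198-87008025 in GRCm38, minus strand) is the main clearance receptor for hyaluronan. It measured 3352, 3274, 3797 and 3648 normalized CPM in ECs and 280.3, 417, 426 and 379.6 in Kupffer cells. No Kupffer cell library came near an EC library, and the log2 fold change was 3.23 ± 0.21 (SE, adjusted p = 1.17e-05). The Kupffer cell mean was 10.7% of the EC mean. The pan-endothelial markers without Cdh5 had a lower median of 4.38%, and the highest of them was Pecam1 at 18.6%. The source of the Stab2 reads in Kupffer cells was not tested. Clec4f (chr6:83644542-83656187, minus strand), a galactose-binding lectin of Kupffer cells, gave the opposite picture, with 15820, 13880, 12690 and 12840 in Kupffer cells and 199, 96, 232 and 249.9 in ECs. Its log2 fold change was -6.19 ± 0.31 (SE, adjusted p = 6.64e-06), and the EC mean was 1.41% of the Kupffer cell mean.

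Mrc1 (mannose receptor, chr2:14229392-14332057, plus strand) was strong in all 8 libraries. ECs held 1772, 1278, 2010 and 1774 normalized CPM and Kupffer cells 828, 1070, 719 and 939.9. The lowest EC library still exceeded the highest Kupffer cell library, by a small margin, and the log2 fold change was 0.94 ± 0.23 (SE, adjusted p = 0.0161). Mrc1 thus met the rule for shared genes, and its Kupffer cell mean was 52% of the EC mean, far above the 3.04% to 18.6% of the pan-endothelial markers. The call was lost without the EC library WT 34 (adjusted p = 0.0567), without KO 6 (0.0643) and in the WT label alone (log2 fold change 0.69, adjusted p = 0.321). Msr1 (class A scavenger receptor, chr8:39581685-39642673, minus strand) binds modified lipoproteins and bacterial surfaces and measured 938, 744, 834 and 895 in Kupffer cells. ECs held 360.4, 258, 431 and 395, less than every Kupffer cell library. The log2 fold change was -1.25 ± 0.21 (SE, adjusted p = 0.00205), just outside the 2-fold rule, and the EC mean was 42.4% of the Kupffer cell mean, against at most 5.92% for the Kupffer cell markers.

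Of 28 tested scavenger receptors 6 were higher in ECs, 9 were higher in Kupffer cells and 13 passed in neither direction. The 53.6% called stood against 27.6% of all genes tested. Over the lists of gene roles the share called ran from 16.7% (dissociation response) to 94.7% (phagocyte oxidase and actin). The scavenger receptors had a median log2 fold change of -0.16 against 0.07 over all genes. With library totals alone the median turned to 0.22. Stab1 (stabilin-1), which also clears modified proteins, followed Stab2 with 1187 to 1747 normalized CPM in ECs and 158 to 325 in Kupffer cells (log2 fold change 2.59 ± 0.27, SE, adjusted p = 0.000168). Pla2r1, the receptor for secreted phospholipase A2, was almost absent from Kupffer cells at 0.35 to 6.52 against 91.5 to 113 in ECs. The log2 fold change of Pla2r1 was 5.30, and 6.47 without the Kupffer cell library KO 27. Scarf1, a scavenger receptor first found on endothelium, had 219.9 to 531 in ECs and 107 to 162 in Kupffer cells (log2 fold change 1.49, adjusted p = 0.00316), and did not pass within the WT label alone (0.12). Cd36, the fatty acid and thrombospondin receptor, was higher in ECs on average (log2 fold change 1.39, adjusted p = 0.0325). It measured 226, 172, 239.9 and 832 in Kupffer cells and 575 to 1053 in ECs, so that the library KO 43 lay within the EC range. The adjusted p of Cd36 rose to between 0.0594 and 0.0941 when one of the EC libraries WT 34 and KO 46 or of the Kupffer cell libraries WT 31, WT 39 and KO 27 was left out, and to 0.31 in the KO label alone.

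On the Kupffer cell side, Cd163, which takes up haptoglobin-bound haemoglobin, held 332 to 1036 normalized CPM against 5.7 to 10.7 in ECs, and Cd68 held 1543 to 1887 against 22 to 44.4. Timd4, a receptor for phosphatidylserine on dying cells, had a log2 fold change of -6.59 ± 0.36 (SE, adjusted p = 1.09e-05). Marco, a class A receptor for bacteria, measured 11550, 592, 728 and 420.5 in Kupffer cells and 11.3 to 26.6 in ECs. Most of its mean came from the library WT 31. The log2 fold change of -6.62 became -4.85 without that library (adjusted p = 4.38e-05), -5.70 and -5.78 without the EC libraries WT 34 and WT 38, and -7.37 and -7.51 without the Kupffer cell libraries KO 27 and KO 43. Lrp1, a large endocytic receptor for remnant lipoproteins and protease complexes, was 20.9-fold higher in Kupffer cells by the ratio of means (682 to 866 against 20.4 to 56.6). Besides Mrc1, 3 scavenger receptors were shared. For none of these 4 did the interval of the log2 fold change lie within 2-fold, so that their levels are not shown to be equal. Scarb1, the receptor for high-density lipoprotein, had means of 399 in ECs and 519 in Kupffer cells (adjusted p = 0.274). Scarb2, the lysosomal carrier of glucocerebrosidase, had 203 and 329.5 (adjusted p = 0.12). Cxcl16, a membrane chemokine that also binds oxidized lipoprotein, had 335 and 604 (adjusted p = 0.0578), and passed with DESeq2 (0.0184). Its log2 fold change was -0.88, and -1.03 without the Kupffer cell library WT 39.

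**Figure D2:**
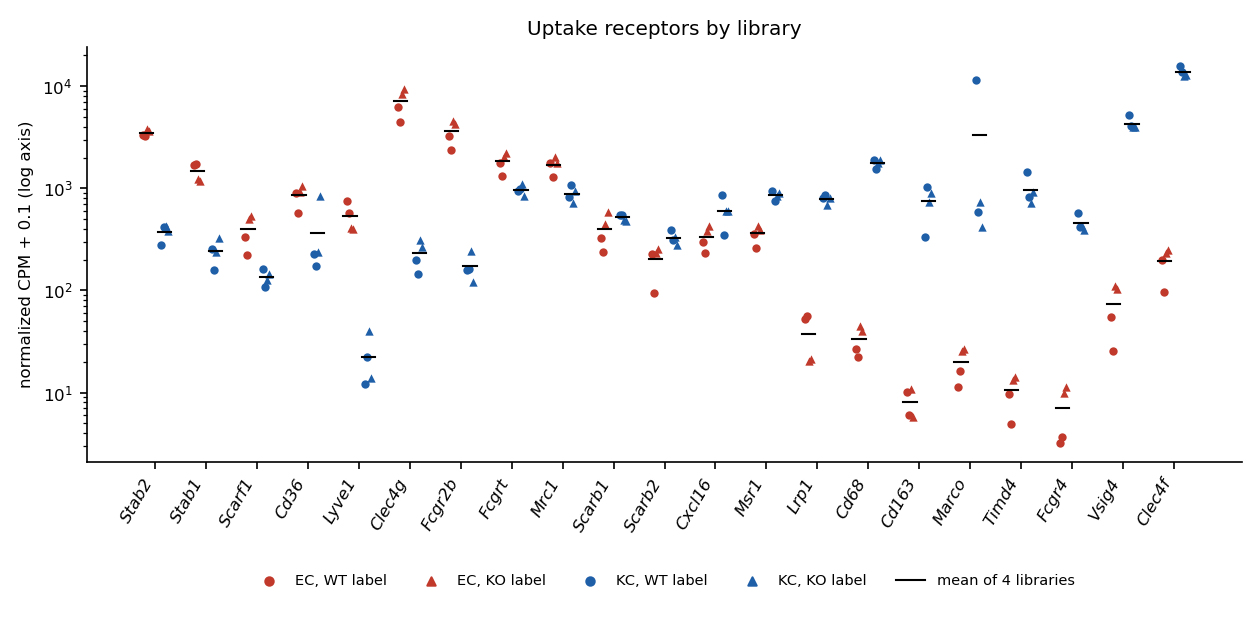
Normalized CPM (log axis, with 0.1 added) of 21 uptake receptors in each library, ECs in red and Kupffer cells in blue, circles for the WT label and triangles for the KO label, with a bar at the mean of 4 libraries. Stab2 to Lyve1 and Clec4g to Fcgrt lie higher in ECs, Fcgrt and Mrc1 to Cxcl16 are the shared ones, and Msr1 to Clec4f lie higher in Kupffer cells, where 1 library carries most of the mean of Marco.

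C-type lectins recognize sugars on glycoproteins and microbes. Of 32 tested members 7 were higher in ECs and 14 in Kupffer cells (65.6% called, against 27.6% of all genes tested). Asgr1, a hepatocyte lectin, was the only shared one. Clec4g (LSECtin) held 6283, 4448, 8367 and 9430 normalized CPM in ECs and 146 to 310.1 in Kupffer cells, a log2 fold change of 4.95 ± 0.23 (SE, adjusted p = 4.64e-06). Clec14a, a lectin of vascular endothelium, and Lyve1, a hyaluronan receptor of the link-protein family counted with this list, had log2 fold changes of 4.78 and 4.58. Cd209b, a relative of the dendritic cell lectin DC-SIGN, was higher in ECs (39.5 to 93.5 against 5.8 to 11.1). In Kupffer cells Cd207 (langerin), a lectin best known from Langerhans cells, measured 560 to 947 against 4.27 to 28.9 in ECs. Clec12a, an inhibitory receptor of myeloid cells, and Cd44, a hyaluronan receptor also counted here, had log2 fold changes of -5.88 and -5.51. Clec1b, the podoplanin receptor of platelets, was present in both cells, with 165 to 237 in ECs and 394 to 517 in Kupffer cells (adjusted p = 0.00289, and 0.0639 in the WT label alone). Fcna (ficolin A), a soluble lectin, was the only one of the 16 listed sinusoidal EC markers that was higher in Kupffer cells, with 4308 to 4691 in Kupffer cells and 42.5 to 106 in ECs.

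Receptors for antibody and complement were for the most part Kupffer cell genes, with 11 of 16 higher there and 3 higher in ECs. The share called was 87.5%, against 27.6% of all genes tested. The 3 exceptions were Fcgr2b, Fcgrt and C5ar2. Fcgr2b, the inhibitory Fc receptor through which sinusoidal ECs clear small immune complexes, held 3246, 2364, 4571 and 4297 normalized CPM in ECs and 159, 161, 246 and 121 in Kupffer cells. Its log2 fold change of 4.36 ± 0.27 (SE, adjusted p = 1.25e-05) contrasted with those of the activating receptors Fcgr1 (-6.20), Fcgr3 (-5.71) and Fcgr4 (-6.22). Fcer1g, the signalling chain that the activating receptors need, was detected in all libraries, with 146 to 284 in ECs and 1110 to 1688 in Kupffer cells. Fcgrt, the neonatal Fc receptor that rescues IgG and albumin from the lysosome, was shared, at 1847 ± 391 in ECs and 967 ± 101 in Kupffer cells (SD, n = 4, adjusted p = 0.0131, and 0.299 in the WT label alone). Vsig4, the complement receptor by which Kupffer cells catch blood-borne bacteria, reached 3965 to 5181 against 25.4 to 109.6 in ECs.

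Recognition of phosphatidylserine, the signal that marks dying cells, was divided between the cells. Of 15 tested members 7 were higher in ECs and 7 in Kupffer cells (93.3% called, against 27.6% of all genes tested). ECs were higher for the bridging proteins Gas6 (log2 fold change 2.77), Mfge8 (3.33) and Pros1 (1.59, adjusted p = 0.00886, and 0.0858 in the WT label alone). Kupffer cells were higher for the receptor Axl, with 577, 2121, 1791 and 1798 normalized CPM against 24.7 to 37.1 in ECs. Mertk, the related receptor for Gas6 and Pros1, was shared, with 127 to 298 in ECs and 259.9 to 450.4 in Kupffer cells. Its log2 fold change was -0.77 ± 0.30 (SE, adjusted p = 0.0924), and its 95% interval did not lie within 2-fold. Mertk passed with DESeq2 (0.0433) and in the KO label alone (0.0445). Without the EC library WT 34 its log2 fold change was -1.06.

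In the general machinery of endocytosis some genes were shared and others differed. Of 31 tested genes of clathrin-mediated endocytosis 13 were shared. Over all genes, 1984 of 15917 tested were shared, and 78.8% of those at 50 CPM or more in both cells. In the clathrin list 4 genes were higher in ECs and 6 in Kupffer cells. The 32.3% called stood against 27.6% of all genes tested, with a median log2 fold change of -0.09. With library totals alone 10 were higher in ECs and 5 in Kupffer cells, with a median of 0.28. The clathrin chains Clta and Cltc had means of 317 and 180.1 normalized CPM in ECs and 343 and 147 in Kupffer cells. The intervals of their log2 fold changes, -0.68 to 0.45 and -0.15 to 0.72, lay within 2-fold. Ap2m1, a subunit of the adaptor that links cargo to clathrin, had 223 and 203 (interval -0.36 to 0.60). Dnm2, the dynamin that pinches off the vesicle, had 262 to 403 in ECs and 199 to 289 in Kupffer cells (adjusted p = 0.111). Dab2, an adaptor for lipoprotein receptors, was shared at 429.5 ± 116 and 255 ± 120.2 (SD, n = 4).

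A few adaptors differed. Epn2, an epsin, was higher in ECs (107 to 144 against 23.9 to 37.8, adjusted p = 9.25e-05). Bin2, a membrane-bending protein of blood cells, was 19.2-fold higher in Kupffer cells (439 to 638 against 25.6 to 28.8). Picalm, a clathrin assembly protein, was higher in Kupffer cells (log2 fold change -1.17, adjusted p = 0.00311, and 0.131 in the WT label alone). Of 14 tested genes of caveolae and fenestrae 6 were higher in ECs and 2 in Kupffer cells (57.1% called, against 27.6% of all genes tested). Sdpr (cavin-2), a coat protein of caveolae, had a log2 fold change of 4.38, and the caveolin Cav1 of 2.38, with an adjusted p of 0.0159 that rose to 0.0526 without the Kupffer cell library WT 31, to 0.0503 without the EC library WT 34 and to 0.127 in the KO label alone. Without the Kupffer cell library KO 27 the log2 fold change of Cav1 was 3.21.

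Of 30 tested genes of endosomal sorting 15 were shared, where 1984 of all 15917 genes tested were shared. The rule needs 50 CPM in both cells, which 2518 genes reached, and 78.8% of those were shared. In this list 2 genes were higher in ECs and 6 in Kupffer cells, and the 26.7% called were close to the 27.6% of all genes tested. With library totals alone 5 were higher in each cell type and the median turned from -0.18 to 0.19. The early endosomal Rab5c and the late endosomal Rab7 had log2 fold changes of 0.06 (interval -0.47 to 0.59) and 0.10 (interval -0.34 to 0.55). Single regulators differed in either direction. Ehd3, a recycling protein counted with the fenestrae list, held 3945 to 5971 normalized CPM in ECs and 97.6 to 338 in Kupffer cells, while its relative Ehd1 held 55.8 to 115 and 360.4 to 1028. Rab27a, which directs secretory lysosomes, was higher in ECs (53.3 to 91.5 against 5.01 to 11), and Rab32, which serves lysosome-related organelles, was higher in Kupffer cells (428 to 576 against 19.7 to 41.1).

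At the lysosome most differences were in favour of Kupffer cells. Of 17 tested cathepsins and related proteases and inhibitors 11 were higher in Kupffer cells and 1 in ECs, with a median log2 fold change of -1.89. The share called was 70.6%, against 27.6% of all genes tested. Ctss, the protease that trims the invariant chain for antigen presentation, measured 7103, 4478, 4249 and 4942 in Kupffer cells and 79.2 to 109.5 in ECs. Ctsc, which activates serine proteases of immune cells, had a log2 fold change of -5.68 ± 0.21 (SE, adjusted p = 4.29e-06). Ctsb and Ctsd, broad proteases of the lysosome, were abundant in both cells but higher in Kupffer cells. Ctsb had means of 1775 in ECs and 11760 in Kupffer cells, and Ctsd 1475 and 4323 (adjusted p = 0.00123, and 0.0512 in the WT label alone). The protease higher in ECs was Ctsl, with 1682, 1105, 2641 and 4682 against 993, 791, 933 and 773 in Kupffer cells. Its log2 fold change of 1.37 ± 0.35 (SE) had an adjusted p of 0.0221, which rose to 0.055 without the EC library WT 34, to 0.071 and 0.0617 without the Kupffer cell libraries KO 27 and KO 43, and to 0.357 in the WT label alone. Tpp1, a peptidase, was shared at 578 ± 125 and 587 ± 26.3 (SD, n = 4).

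Among 36 lysosomal hydrolases and cofactors 17 were higher in Kupffer cells and 3 in ECs (55.6% called, against 27.6% of all genes tested). The 3 were Hyal1, Hyal2 and Smpd1. Hyal2, which cuts high-molecular-weight hyaluronan, held 473, 325, 575 and 810.4 normalized CPM in ECs and 67, 60.1, 50.1 and 30 in Kupffer cells (log2 fold change 3.38 ± 0.34, SE, adjusted p = 0.000168). Kupffer cells were higher for Lipa, the acid lipase (log2 fold change -2.04), for Npc2, which hands cholesterol out of the lysosome (-2.20), for Hexa, which degrades gangliosides (-1.73), and for Acp5, the tartrate-resistant acid phosphatase (-5.18). Gaa, the acid glucosidase for glycogen, was shared, with 238 to 366 in ECs and 232 to 364 in Kupffer cells (interval of the log2 fold change -0.55 to 0.45). Of 19 lysosomal membrane proteins and regulators 10 were higher in Kupffer cells and 1 in ECs (57.9% called). Slc11a1 (Nramp1), the metal transporter of the phagosome, had 1449 to 1933 in Kupffer cells and 18.1 to 32 in ECs. Lamp1 was higher in Kupffer cells by 2.01-fold (adjusted p = 0.00939, and 0.12 in the WT label alone). Its partner Lamp2 was shared, at 898 in ECs and 631 in Kupffer cells (adjusted p = 0.125), as was the calcium channel Mcoln1 at 120.1 and 109.7 (interval -0.28 to 0.56).

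The proton pump leaned the same way, with 12 of 21 tested subunits higher in Kupffer cells and Atp6v0a2 higher in ECs. The share called was 61.9%, against 27.6% of all genes tested. In the membrane sector the cells differed in their a subunits. Tcirg1, the a3 subunit, held 592, 518, 633 and 882 in Kupffer cells and 138, 78.1, 132 and 121 in ECs. Atp6v0a2, the a2 subunit, held 119.7, 78.3, 114 and 98 in ECs and 26.1, 50.6, 39.8 and 34.2 in Kupffer cells (log2 fold change 1.44 ± 0.26, SE, adjusted p = 0.00287, and 0.0742 in the WT label alone). The catalytic subunit Atp6v1a and the regulatory subunit Atp6v1b2 had log2 fold changes of -1.78 and -2.38.

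**Figure D3:**
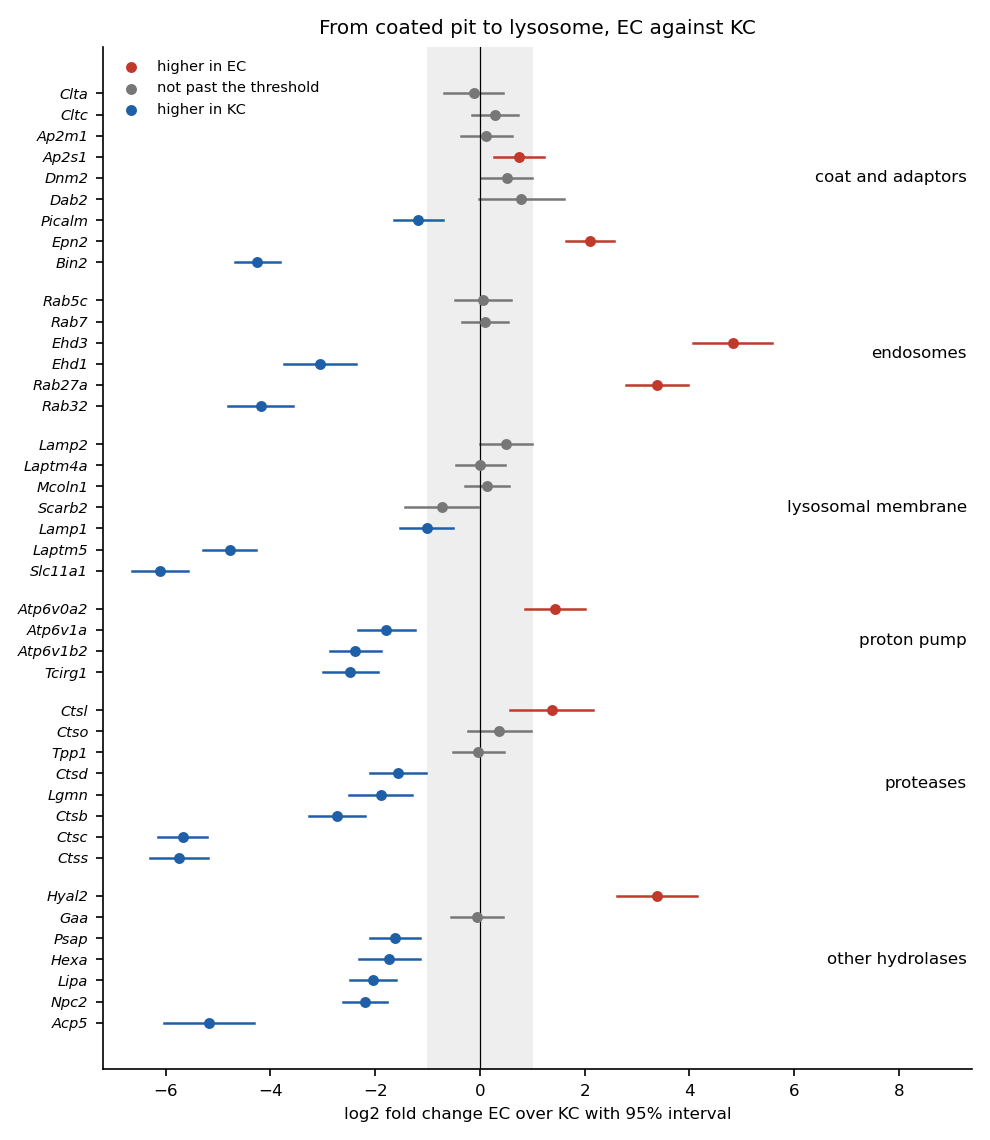
Log2 fold change of EC over Kupffer cells (horizontal) with its 95% interval for 41 named genes, ordered from the coated pit to the lysosomal hydrolases, each from 4 EC and 4 Kupffer cell libraries. The grey band marks 2-fold. Clta, Cltc, Ap2m1, Rab5c, Rab7, Laptm4a, Mcoln1, Tpp1 and Gaa lie in the band with their intervals, and most proteases, hydrolases and pump subunits lie to the left, higher in Kupffer cells.

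Transcription of lysosomal genes is known to be driven by the helix-loop-helix factors Tfeb, Tfe3 and Mitf, relatives of Tfec, which bind E-boxes of the type CACGTGA. Tfec was shared and Tfe3 and Mitf were higher in Kupffer cells. Tfec measured 55.2, 46.6, 69.1 and 69.1 normalized CPM in ECs and 91.3, 92.5, 100 and 68.4 in Kupffer cells (log2 fold change -0.57 ± 0.21, SE, adjusted p = 0.0794), and passed with DESeq2 (0.0383) and without the Kupffer cell library KO 43 (0.0284). In hepatocytes its mean was 0.905 and in hepatic stellate cells 2.76. Tfe3 had 101 to 119 in ECs and a mean of 231 in Kupffer cells (log2 fold change -1.04, adjusted p = 0.00217, and 0.0512 in the WT label alone). Mitf had 0.687 to 4 and 20.3 to 33.8 (adjusted p = 0.000617), and Tfeb was low in both, at 6.75 to 11.3 and 8.27 to 30.5 (adjusted p = 0.171).

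Promoters were read from RefSeq (GRCm38.p6) as the 250 bases before the listed start of a gene and searched on both strands. The word CACGTGA occurred in 852 of 27025 promoters (3.15%). It occurred in 12 of the 74 promoters found for 95 genes of the 4 lysosomal lists (16.2%), in 107 of 1561 promoters of shared genes (6.85%), in 46 of 930 promoters of genes more than 2-fold higher in Kupffer cells (4.95%) and in 19 of 826 of those more than 2-fold higher in ECs (2.30%). The word GAGGAAGT, of the kind bound by PU.1, the myeloid factor encoded by Spi1, occurred in 660 of all promoters (2.44%), in 54 of the Kupffer cell set (5.81%), in 18 of the EC set (2.18%) and in 34 of the shared set (2.18%). The related word CAGGAAGT, of the kind bound by Erg and other Ets factors, was found in 2.73% of all promoters, 4.30% of the Kupffer cell set, 2.18% of the EC set and 2.63% of the shared set. The E-box word CACCTG, which Zeb factors bind, stood in 17.1% of all promoters, 15.6% of the EC set, 17.4% of the Kupffer cell set and 12.4% of the shared set. The word AGATAA of the Gata factors stood in 10.3%, 5.57%, 7.31% and 6.09% of them. GAGGAAGT and CAGGAAGT differ in their first letter alone, and the word CACGTGA reads the same on both strands where T precedes it. A match is a word in this window and says nothing of binding.

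Lysosomal promoters with the word CACGTGA (or its complement TCACGTG, in capitals) are shown for 2 shared genes, Gaa (chr11:119267713-119267962, plus strand) and Mcoln1 (chr8:3500269-3500518, plus strand), and for 2 genes higher in Kupffer cells, Ctsd (chr7:142387828-142388077, minus strand) and Atp6v1a (chr16:44139260-44139509, minus strand). They were picked as examples that carry the word, so that its presence in both pairs is no result.
Gaa: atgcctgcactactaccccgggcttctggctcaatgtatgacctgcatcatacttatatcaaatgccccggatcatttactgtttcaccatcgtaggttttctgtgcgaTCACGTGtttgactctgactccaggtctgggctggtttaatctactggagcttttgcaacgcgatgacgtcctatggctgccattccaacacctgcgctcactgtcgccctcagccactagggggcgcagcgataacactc
Mcoln1: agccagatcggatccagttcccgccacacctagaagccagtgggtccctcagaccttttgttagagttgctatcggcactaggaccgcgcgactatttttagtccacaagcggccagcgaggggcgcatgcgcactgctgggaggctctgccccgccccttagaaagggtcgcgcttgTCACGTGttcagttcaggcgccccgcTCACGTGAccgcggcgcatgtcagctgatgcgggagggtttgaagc
Ctsd: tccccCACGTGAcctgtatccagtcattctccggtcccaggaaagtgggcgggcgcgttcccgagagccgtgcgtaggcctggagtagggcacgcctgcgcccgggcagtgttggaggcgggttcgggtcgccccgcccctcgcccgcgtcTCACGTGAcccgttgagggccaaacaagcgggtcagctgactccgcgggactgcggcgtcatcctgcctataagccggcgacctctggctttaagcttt
Atp6v1a: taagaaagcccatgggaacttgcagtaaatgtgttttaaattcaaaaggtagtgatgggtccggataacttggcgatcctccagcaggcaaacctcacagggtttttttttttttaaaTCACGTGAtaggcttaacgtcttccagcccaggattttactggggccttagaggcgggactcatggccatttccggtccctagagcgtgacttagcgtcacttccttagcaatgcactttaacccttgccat

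In Mcoln1 2 copies stood within 72 bases of the start, and in Ctsd the nearer of 2 copies began 99 bases before it. The Ets words are shown for Ctsc (chr7:88277835-88278084, plus strand) and Fcgr4 (chr1:171018676-171018925, plus strand), both far higher in Kupffer cells, and for Mrc1 (chr2:14229164-14229413, plus strand), which both cells share. Capitals mark ACTTCCTC, the complement of GAGGAAGT, in the first pair, and ACTTCCTG, the complement of CAGGAAGT, in Mrc1.
Ctsc: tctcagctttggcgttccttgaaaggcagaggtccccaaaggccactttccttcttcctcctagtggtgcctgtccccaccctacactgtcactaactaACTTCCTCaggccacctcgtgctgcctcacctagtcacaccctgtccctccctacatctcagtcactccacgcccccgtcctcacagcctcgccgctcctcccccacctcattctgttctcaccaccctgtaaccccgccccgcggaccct
Fcgr4: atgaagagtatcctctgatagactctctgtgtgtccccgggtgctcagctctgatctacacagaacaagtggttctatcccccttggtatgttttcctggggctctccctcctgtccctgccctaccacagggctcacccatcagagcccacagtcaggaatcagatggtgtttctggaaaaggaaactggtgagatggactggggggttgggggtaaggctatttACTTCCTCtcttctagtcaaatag
Mrc1: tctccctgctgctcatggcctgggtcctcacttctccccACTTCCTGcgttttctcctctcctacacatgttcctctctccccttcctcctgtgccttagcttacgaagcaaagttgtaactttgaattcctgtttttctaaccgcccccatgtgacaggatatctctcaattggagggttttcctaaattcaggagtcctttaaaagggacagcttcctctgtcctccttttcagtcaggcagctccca

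The 1984 shared genes were described by their levels without a test, because levels had chosen them. For 1204 of them (60.7%) the 95% interval of the log2 fold change lay within 2-fold. These intervals came from the values that chose the genes and were not adjusted for the number of genes. They are a description and do not bound the differences. Of the 1984 genes 238 (12.0%) passed the test for any difference, 91 higher in ECs and 147 in Kupffer cells, where the share over all genes tested was 27.6% and the rule itself had removed the wider gaps. Sh3bgrl3 (means of 129.6 and 259 normalized CPM) lay just inside the 2-fold rule and Rps9 (182.2 and 365.1) just outside it. At the level rule Slc38a7 (mean of 50.01 in ECs) was just inside and Rpl35 (49.98 in ECs) just outside. Under the WT label alone 1881 genes met the rule and under the KO label alone 1743, and 1386 met it under both. Of the shared genes 1131 also reached 50 CPM in hepatocytes and hepatic stellate cells (HSCs), and 415 lay within 2-fold over all 4 cell types. Ribosomal proteins made up 41 of the shared genes and mitochondrial genes 8.

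The 10 shared genes with the highest counts, which are not divided by transcript length, were H2-D1, Rn18s-rs5, Dusp1, B2m, Jun, Junb, H2-K1, Ppp1r15a, Hspa5 and Malat1. H2-D1, a heavy chain of MHC class I, held 5883 to 9847 normalized CPM in ECs and 8540 to 12440 in Kupffer cells, and B2m, its light chain, 2589 to 4069 and 2850 to 5222. H2-K1, another heavy chain, had means of 1921 and 2568. The heavy chain genes are near-identical copies, and how the counting divided reads between them is uncertain. Hspa5, the chaperone of the endoplasmic reticulum, had 1876 and 1897, and the nuclear RNA Malat1 2086 and 1627. Rn18s-rs5, a copy of ribosomal RNA whose reads cannot be assigned with certainty, had 7920 and 8011. Dusp1, Jun, Junb and Ppp1r15a, which respond quickly to stress and to tissue digestion, were uneven between Kupffer cell libraries. Jun measured 3093, 4612, 1309 and 467 in Kupffer cells against 3280 to 4322 in ECs, and Dusp1 8445, 9341, 3109 and 2583 against 3855 to 7405. Both were lowest in the Kupffer cell libraries of the KO label. The fitted log2 fold changes of Ppp1r15a (1.13, adjusted p = 0.0522 by edgeR) and Jun (1.07, 0.182) lay outside 2-fold, though their means met the rule. Ppp1r15a passed with DESeq2 (0.00791). In the KO label alone Ppp1r15a (0.00513), Jun (0.0341), Junb (0.0284) and Dusp1 (0.0132) were higher in ECs by edgeR, so that equal levels are not shown. Of 18 dissociation response genes 10 were shared, 2 were higher in ECs and 1 in Kupffer cells. Over all 15917 genes tested 1984 were shared and 27.6% were called, against 16.7% called in this list. Of the 2518 genes at 50 CPM or more in both cells 78.8% were shared. In the KO label alone 8 of the 18 passed in either direction. Socs3, an inhibitor of cytokine signalling, was higher in ECs (1699 to 3125 against 354 to 741), and Nfkbia, the inhibitor of NF-kB, was higher in Kupffer cells (3598 to 7173 against 584 to 1423). The part of the isolation in these values was not tested.

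Hepatocyte genes were found among the shared genes. Of 779 genes enriched in hepatocytes over HSCs, 173 were among the shared genes and made up 8.72% of the 1984, and 8 of these 173 were shared under both labels. Alb (albumin) measured 5558, 10290, 1327 and 873 normalized CPM in ECs and 4141, 4741, 5525 and 6543 in Kupffer cells. The EC library WT 38 was the highest and both EC libraries of the KO label were the lowest. All 15 hepatocyte markers met the shared rule by their means and none passed the test in either direction, with a median log2 fold change of -0.82. Within the KO label alone all 15 passed, and Alb there was lower in ECs, with a log2 fold change of -2.49 (adjusted p = 0.00377). Summed, these markers took 14650 and 27850 normalized CPM in ECs of the WT label, 3283 and 2617 in ECs of the KO label, and 10660 to 18470 in Kupffer cells, and each marker was detected in every library. The median level of the 779 genes, relative to hepatocytes, was 5.2% and 9.77% in ECs of the WT label, 1.5% and 1.07% in those of the KO label, and 3.27% to 7.04% in Kupffer cells. When the hepatocyte-enriched genes were left out, 1927 genes were shared. The part of hepatocyte RNA in the levels of other shared genes was not tested. Markers of further cell types were checked in the same way. Lymphocyte and NK cell markers summed to between 148.8 and 674.1 in all 8 libraries, those of neutrophils and monocytes to between 24.76 and 417.1, and those of dendritic cells to between 126 and 247.4. Stellate cell markers summed to between 590.1 and 1504, with 2 of 15 higher in ECs, and cholangiocyte markers to between 121.3 and 281.8. Erythroid markers summed to 90.87 to 241.2 in ECs and 223.4 to 932.9 in Kupffer cells, and 3 of 5 tested were higher in Kupffer cells. None of the 5 passed without the Kupffer cell library WT 31 or in the WT label alone, and 1 passed without the EC library WT 34, the EC library KO 6 or the Kupffer cell library KO 43.

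To separate what the scavenger cells shared from what every liver cell held, both were compared with hepatocytes and HSCs in one fit over the 16 libraries. Of 17214 genes tested there, 444 (2.58%) were more than 2-fold higher, with an adjusted p under 0.05, in ECs and in Kupffer cells than in each of the other 2 cell types. Among the 1984 shared genes 93 did so (4.69%), and 61 of the 93 were shared under both labels. The shares of 4.69% and 2.58% have unlike bases, because shared genes had to reach 50 CPM in ECs and in Kupffer cells. None of the 93 was enriched in hepatocytes. The levels in this paragraph were scaled over the 16 libraries. Cdh5 stood first, with means of 134 normalized CPM in ECs, 139.8 in Kupffer cells, 5.15 in HSCs and 1.72 in hepatocytes. Gatm, which makes the precursor of creatine, followed with 1038, 726, 39.2 and 24.6 in the same order. Mrc1 had 1385, 695, 39.8 and 14.5. Pla2g7, the plasma platelet-activating factor acetylhydrolase, had 386, 575, 29.1 and 12.1. Srgn, the proteoglycan core of secretory granules, had 291, 437, 19.9 and 8.6. Dab2, the endocytic adaptor named above, had 350.2, 201, 20.2 and 6.38. Further genes of this kind were Tfec, the amino acid transporter Slc43a2, the tetraspanin Tspan15, the SLAM family receptor Cd84, the sialyltransferase St3gal6, the adenylate cyclase Adcy4, Lrmp, the volume-regulated channel subunit Lrrc8c and 6430548M08Rik. Of these, Tspan15 and Lrmp were higher in Kupffer cells by less than 2-fold (adjusted p = 0.0124 and 0.0134). Without the EC library KO 6 the adjusted p was 0.0522 for Tspan15 and 0.0627 for Lrmp, and without the Kupffer cell library KO 27 it was 0.0538 for Tspan15. Neither passed in one label alone, or without scaling (0.079 for Tspan15 and 0.0881 for Lrmp).

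**Figure D4:**
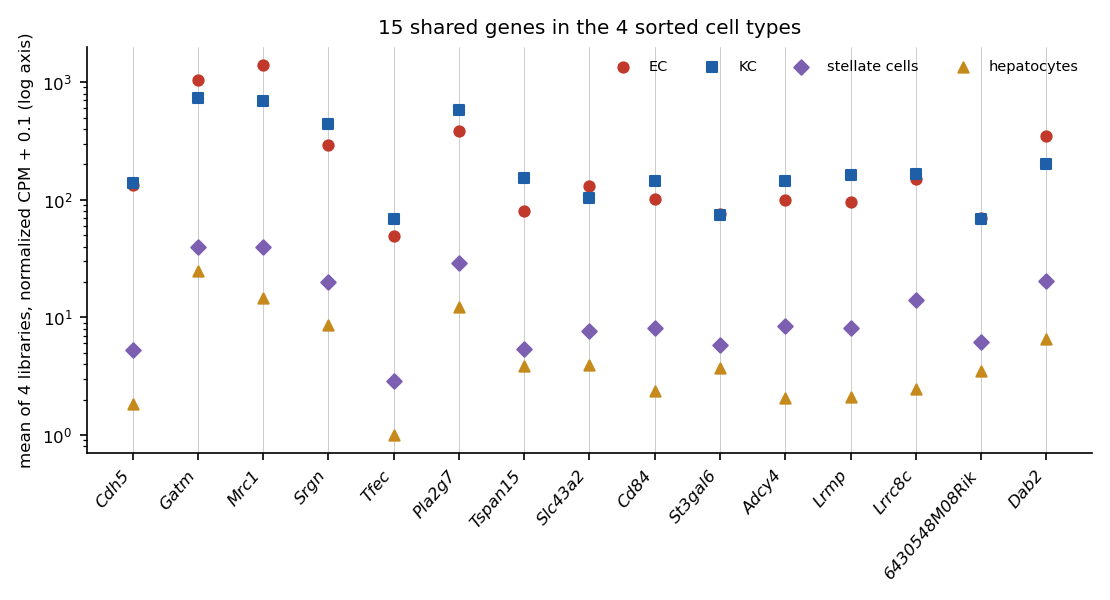
Mean normalized CPM of 4 libraries (log axis, with 0.1 added, scaled over 16 libraries) of the 15 shared genes with the largest excess over hepatocytes and HSCs, in ECs, Kupffer cells, HSCs (stellate cells) and hepatocytes. The rules chose genes whose EC and Kupffer cell points lie close together and above both other cell types. Cdh5 had 134 and 139.8 against 5.15 in HSCs.

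Cdh5, whose promoter drove the Cre, is given in each library. On the scale of the 8 libraries it measured 209, 140.5, 154 and 154 in ECs and 185, 185, 162 and 183 in Kupffer cells, so that the groups overlapped. The log2 fold change was -0.12 ± 0.19 (SE, interval -0.55 to 0.31, adjusted p = 0.684). The Kupffer cell mean was 109% of the EC mean, whereas the other 15 pan-endothelial markers lay between 3.04% and 18.6%, and Pecam1 (589 to 972 in ECs and 127 to 169.9 in Kupffer cells) was the highest of them. Relative to its own EC mean, Cdh5 in Kupffer cells was thus higher than the other listed pan-endothelial markers. The source of the Cdh5 reads in Kupffer cells was not tested. Whether the Cre was active in Kupffer cells was not measured.

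Genes for sensing and killing microbes were mostly higher in Kupffer cells. Of 20 pattern recognition genes 15 were higher in Kupffer cells, 12 of them beyond 2-fold, and none was higher in ECs. The share called was 75.0%, against 27.6% of all genes tested. Cd14, the co-receptor for lipopolysaccharide, held 1851 to 5414 normalized CPM in Kupffer cells and 494 to 772 in ECs. Tlr4 itself was low, with 22, 91.7, 41.5 and 24.9 against 8.42 to 15.8 (adjusted p = 0.0161). Its log2 fold change was -1.93, and -1.27 without the Kupffer cell library WT 39, and the adjusted p lay between 0.05 and 0.0554 without WT 34 or WT 38 of the ECs or KO 27 of the Kupffer cells. Tlr4 did not pass in the WT label alone (0.0502) or in the KO label alone (0.0617). Its partner Ly96 had means of 30.2 and 28.8 (interval of the log2 fold change -0.59 to 0.70). Unc93b1, which carries nucleic acid-sensing receptors to endosomes, was 9.78-fold higher in Kupffer cells by means. Nod1, a cytosolic sensor of peptidoglycan, was shared at 164 and 142. Of 19 genes of the phagocyte oxidase and of phagocytic actin 17 were higher in Kupffer cells, 1 in ECs (Wasl), and Rac1 was shared (94.7% called). Cybb, the catalytic subunit of the oxidase, measured 1364, 1663, 1705 and 2147 in Kupffer cells and 24.8 to 39.5 in ECs (log2 fold change -5.71 ± 0.24, SE, adjusted p = 4.29e-06).

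Antigen presentation was split by class. Of 20 genes 13 were higher in Kupffer cells and none in ECs (65.0% called, against 27.6% of all genes tested). From the class I pathway 6 genes (H2-K1, H2-D1, B2m, Tap1, Tap2 and Tapbp) were shared. Cd74, the invariant chain of class II, measured 21720, 16820, 12280 and 19820 in Kupffer cells and 606, 769, 298 and 267 in ECs, and H2-Ab1 2725 to 6247 and 54.1 to 164. The EC mean of Cd74 was 2.75% and that of H2-Ab1 2.59% of the Kupffer cell mean. The Kupffer cell markers ran from 0.597% to 5.92%, with a lower median of 1.51%.

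Iron handling was divided between the cells. Of 21 genes 13 were higher in Kupffer cells and 3 in ECs (76.2% called, against 27.6% of all genes tested), and the 3 were Bmp2, Bmp6 and Heph. Bmp2 and Bmp6 are the signals by which ECs instruct hepatocytes to make hepcidin, and their log2 fold changes were 4.48 and 3.84. In Kupffer cells Slc40a1 (ferroportin), the iron exporter that hepcidin blocks, held 1968, 6930, 5532 and 4678 normalized CPM against 198 to 364 in ECs. Hmox1, which opens the haem ring, held 2324 to 3412 against 59 to 153. Among 18 lipid genes 9 were higher in Kupffer cells and 4 in ECs (72.2% called). Lpl (lipoprotein lipase) was a Kupffer cell gene at 1043 to 1324 against 12.6 to 70.6, and Gpihbp1, the endothelial anchor of that lipase, was an EC gene at 1151 to 2494 against 41 to 97.3. Fabp4, a fatty acid carrier, was higher in ECs (log2 fold change 3.55). Apoe was abundant in both, with 10940 to 12860 in ECs and 33780 to 40730 in Kupffer cells (adjusted p = 0.000666, and 0.111 in the WT label alone), and is also a major hepatocyte transcript.

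Among the signals that the cells of the sinusoid exchange, ligands and receptors were called in both directions. Of 26 tested ligands 12 were higher in ECs and 5 in Kupffer cells, and of 29 tested receptors 16 and 8. The shares called were 65.4% and 82.8%, against 27.6% of all genes tested. Csf1, the growth factor of macrophages, measured 145, 135, 116 and 156 in ECs and 10.7, 18.9, 26.9 and 17.2 in Kupffer cells, while its receptor Csf1r measured 54.2 to 105 and 4421 to 6757. Dll4, the Notch ligand of endothelium, was higher in ECs (358 to 595 against 7.01 to 39.7). The log2 fold change of Dll4 was 4.84, and 5.49 without the Kupffer cell library KO 27. Notch1 was higher in ECs (log2 fold change 2.49) and Notch2 in Kupffer cells (-3.14). Acvrl1 (Alk1), an endothelial receptor for BMP9, was higher in Kupffer cells in this comparison, with 285, 264, 252 and 210.3 against 85.1, 64.1, 106 and 109.5 in ECs (log2 fold change -1.49 ± 0.22, SE, adjusted p = 0.00115). Tgfbr2, the type 2 receptor for TGF-beta, was shared at 200.2 and 221. The cytokines Il1b and Tnf were Kupffer cell genes, with log2 fold changes of -5.60 and -4.51. Of 25 leukocyte adhesion genes 8 were higher in ECs and 7 in Kupffer cells, and 4 were shared.

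Lineage transcription factors separated the cells. Of 42 tested factors 17 were higher in ECs and 13 in Kupffer cells (71.4% called, against 27.6% of all genes tested). Erg, Sox18 and Gata4, factors of endothelium and of the sinusoid, had log2 fold changes of 4.37, 5.54 and 4.30. Spi1 (PU.1), Nr1h3 (LXR-alpha) and Spic, factors of Kupffer cells, had -5.56, -5.19 and -7.31. The related factors Zeb1 and Zeb2 went opposite ways. Zeb1 was higher in ECs (161 to 218 against 6.59 to 15.8) and Zeb2 in Kupffer cells, as given above. Maf was higher in ECs (152 to 242 against 30.2 to 80.1). Irf8, a myeloid factor, was shared at 465 ± 184 in ECs and 629.5 ± 157 in Kupffer cells (SD, n = 4, adjusted p = 0.314). Fli1, an Ets factor of blood and endothelium, was shared at 106 ± 23.2 and 91.4 ± 28.2 (interval of the log2 fold change -0.41 to 0.79). Id3, an inhibitor of helix-loop-helix factors, had 4029, 2481, 1895 and 1596 in Kupffer cells and 643, 804, 1644 and 1645 in ECs (adjusted p = 0.09). It passed with DESeq2 (0.021) and in the WT label alone (log2 fold change -2.16, adjusted p = 0.0215).

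**Figure D5:**
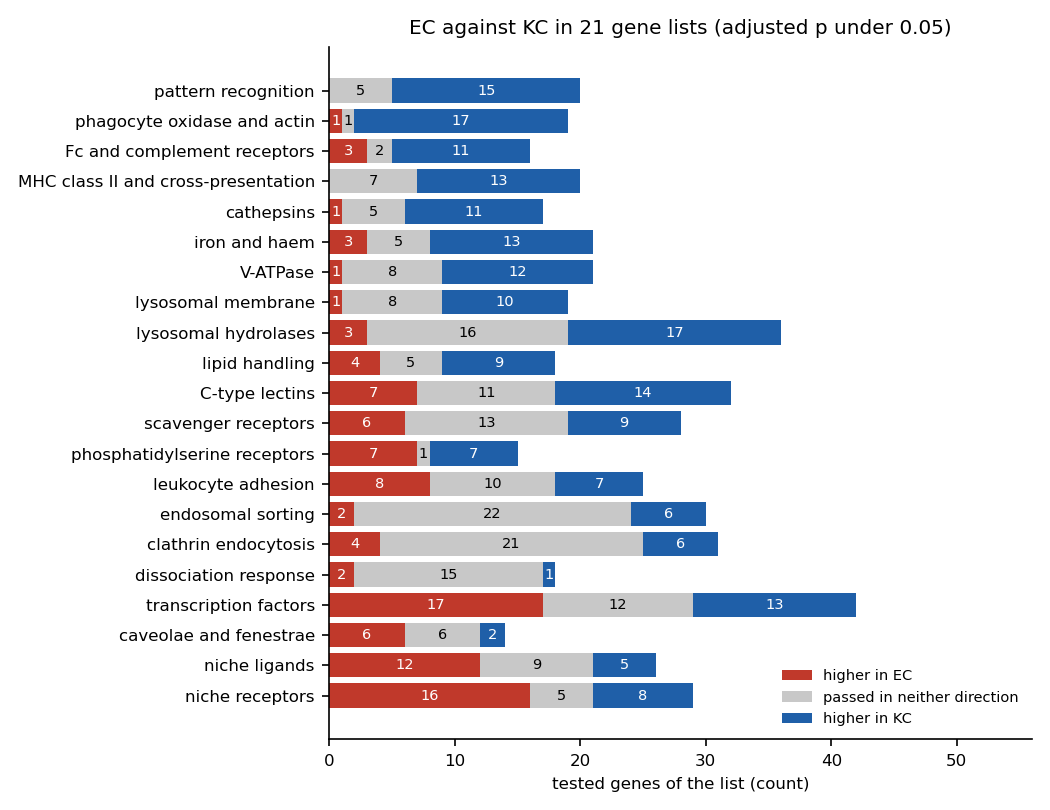
Number of tested genes of 21 lists (horizontal) that were higher in ECs (red), higher in Kupffer cells (blue) or passed in neither direction (grey) at an adjusted p under 0.05, from 4 libraries of each cell type. Kupffer cell calls fill most of pattern recognition (15 of 20) and of phagocyte oxidase and actin (17 of 19), 21 of 31 clathrin genes and 22 of 30 endosomal sorting genes are grey where 27.6% of all tested genes were called, and niche receptors are mostly red (16 of 29).

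The genes with the widest gap, among those with at least 50 normalized CPM in the higher cell and no overlap, were mostly outside the uptake lists. In ECs they were Ush1g, Prickle1, Tbxa2r, Chst2, Sox18, Stox2, Msrb3, Cyp26b1, Tmem44 and Tpbgl. Tbxa2r, the thromboxane receptor, measured 188, 149.9, 171 and 404 in ECs and 4.73, 4.13, 6.45 and 0 in Kupffer cells. Cyp26b1, which degrades retinoic acid, measured 223, 52.2, 17.1 and 111 in ECs, a spread wider than that of most of these genes, and 0.93 to 4.95 in Kupffer cells. Its log2 fold change of 5.37 became 4.63 without the EC library WT 34, 5.97 without the EC library KO 6 and 6.04 without the Kupffer cell library KO 43. Tpbgl had 162 to 210.2 and 3.57 to 6 and the smallest error of the 10 (log2 fold change 5.35 ± 0.23, SE, adjusted p = 4.29e-06). Several of these genes lay near the counting floor in Kupffer cells. The Kupffer cell library KO 27 had the highest median of the pan-endothelial markers. Without KO 27 the log2 fold change rose from 6.09 to 7.01 for Ush1g (6.83 without WT 31). It rose from 5.89 to 7.24 for Prickle1 and from 5.43 to 6.29 for Msrb3. The cause of these shifts was not tested.

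In Kupffer cells the widest gaps were those of Il10, Irg1, Spic, Adgb, Aoah, Ms4a8a, Klra2, Fpr2, Adgre1 and Mefv, of which Adgre1 was the sort marker and is no finding. Il10, the cytokine that dampens inflammation, measured 472, 126, 285 and 468 in Kupffer cells and 0.702 to 3.5 in ECs. Irg1, which makes itaconate from an intermediate of the citrate cycle, measured 1240, 26.6, 125 and 388, and its log2 fold change moved from -7.35 to -5.96 without the library WT 31. Aoah, which removes acyl chains from lipopolysaccharide, had 38.9 to 116 against 0.128 to 1.19 in ECs, and -7.87 in place of -7.04 without the EC library WT 34. Fpr2 (a receptor for formyl peptides) and Mefv (pyrin) had log2 fold changes of -6.89 (-7.50 without the Kupffer cell library KO 27) and -6.80. Ms4a8a, a tetraspanning membrane protein, had the smallest error of the 10 (-7.03 ± 0.25, SE), with 256, 188, 164 and 182 in Kupffer cells.

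The gap between the cell types was also compared between the labels. The interaction of cell type and label passed for 160 genes (1.01%), and 129 of these were hepatocyte-enriched. Of the 160 genes 84 were shared, 80 of them hepatocyte-enriched. Alb had an interaction of -3.29 ± 0.53 on the log2 scale (SE, adjusted p = 0.0467 by edgeR). It is itself one of the hepatocyte markers summed above, and the part of hepatocyte RNA in this value was not tested. The count rested on single libraries. It was 246 without the EC library WT 34, 284 without the Kupffer cell library KO 27 and 14 without WT 39, and 0 without any of the 5 others. When hepatocyte-enriched genes were left out, 0 genes passed in edgeR, while DESeq2 with all genes called 878 and 2198 had an unadjusted p under 0.05 in edgeR. For the 4 receptors of the scavenger function the interaction did not pass, with adjusted p of 0.995 (Stab2), 0.627 (Mrc1), 0.699 (Msr1) and 0.468 (Clec4f).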

How the data were processed

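RNA of sorted liver cells was measured in 16 libraries, of which the 4 EC and 4 Kupffer cell libraries form the main comparison. The authors deposited raw counts per gene for each library, and the submitters' processing notes name Trimmomatic 0.32, HISAT2 2.1.0, HTSeq 0.9.1, edgeR and the build GRCm38. The strand setting and the annotation release are not given in the sources used here. The sample notes name a stranded mRNA kit and the series text Smart-seq2, so that reads of antisense or overlapping genes may be mixed. Of the 47729 gene identifiers 98.9% were found in GENCODE M21, from which gene positions were taken.

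Rows that name no gene were left out. Genes took 47.3% to 55.2% of the deposited counts in the EC and Kupffer cell libraries, reads without a unique position 26.7% to 30.1% and reads outside genes 7.0% to 14.04%. Counts were filtered with filterByExpr, scaled by TMM and tested with edgeR 4.0.16 (quasi-likelihood, R 4.3.3), with the label as covariate and Benjamini-Hochberg adjustment over all genes tested. Errors of log2 fold changes are standard errors and intervals are 95% intervals from the fit. The 2-fold test used glmTreat, the interaction a product term, and hepatocytes and stellate cells entered a fit over 16 libraries. Hepatocyte-enriched genes had a mean of at least 10 CPM in hepatocytes of the WT label and at least 8 times the stellate mean. Floors of 3 counts cover counting error only. Replicate libraries differed beyond counting error, with a mean chi-square per gene of 30.0 to 110.2 over the EC and Kupffer cell pairs. The procedure was tested on simulated data.

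The members, gene lists and tests were chosen with earlier results of these data known. Named are the 4 receptors, Zeb2, list members, the 10 widest called gaps in each direction without overlap and with at least 50 CPM, the 10 shared genes highest in both cells, and the 15 shared genes with the largest excess over hepatocytes and stellate cells. DESeq2 1.42.0, other scalings, filters, thresholds, single labels and left-out libraries were run as alternatives. Figures were drawn with matplotlib 3.10.9. A few list members are counted but not reported by name here.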

Additional observations from a re-analysis of the deposited data

Results flagged for a closer look

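Over 364 groups of 4 libraries, single values were compared with their group by Dixon's ratio at its 95% limit, which chance passes in about 1 group in 20, and 24 passed. Marco stood out with 11600 normalized CPM in the Kupffer cell library WT 31, and the summed Kupffer cell markers with 114000 in the same library. Cd36 was high in the Kupffer cell library KO 43 at 832. The receptors Vsig4 (5180) and Fcgr1 (340), the bridging protein Mfge8 (56.8), the epsin Epn2 (37.8), the nuclear receptor Nr1h3 (1430), the ligand Bmp6 (5.64), the MHC gene H2-D1 (12400) and the inhibitor Nfkbia (7170) each had 1 high Kupffer cell library. Cdh5 (162) and Ctsb (9480) each had 1 low Kupffer cell library.

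In ECs, 1 high library was found for Tbxa2r (404), Dab2 (603), Pla2r1 (113), Laptm5 (137) and Bin2 (28.8). A low EC library was found for Ehd3 (3940), Scarb2 (93.5), Axl (24.7), Dnm2 (262), Hmox1 (59) and Nod1 (125), in normalized CPM.

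The difference between ECs and Kupffer cells differed between the labels for Alb, with an interaction of -3.29 ± 0.53 on the log2 scale (SE, adjusted p = 0.0467 by edgeR). Hepatocyte markers summed to 14650 and 27850 normalized CPM in ECs of the WT label and to 3283 and 2617 in those of the KO label, and their part in this value was not tested.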

How the results depend on the processing

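The count of 4389 called genes was 3287 to 3962 when 1 library was left out (1601 to 2020 higher in ECs, 1686 to 1942 higher in Kupffer cells), 2660 with the WT label alone (1338 and 1322), 4187 with the KO label alone, 2739 at an adjusted p under 0.01 (1322 and 1417) and 5543 with DESeq2. Library totals without scaling gave 3521 genes higher in ECs. The genes at least 2-fold apart numbered 2036 to 2335, the shared genes 1836 to 2059 and those above hepatocytes and stellate cells 374 to 429 when 1 library was left out. The level rule set the number of shared genes, with 4174 at 20 CPM and 848 at 100 CPM, and 1394 met the rule in every library. The interaction count of 160 was the least stable, with 878 in DESeq2, 1085 without a filter, 406 with at least 10 counts in every library, 0 without scaling or without hepatocyte-enriched genes, and 0 to 284 when 1 library was left out. In the WT label alone 7 lysosomal membrane, 7 V-ATPase, 4 clathrin and 3 endosomal sorting genes were called, and dissociation response genes numbered 5 with DESeq2 and 8 in the KO label alone. For named genes that were called, 1566 of 1612 values kept direction and side of the threshold, 46 (of 18 genes) kept direction alone and 0 reversed. For named genes that were not called, 35 values passed under an alternative, 80 moved by more than 1 standard error and 509 did neither. All 15 hepatocyte markers were called in the KO label alone, and 0 to 3 erythroid markers were called when 1 library was left out (0 in the WT label alone). The causes of these shifts were not tested, beyond the smaller number of libraries in single labels. No paired analysis was possible because the groups share no replicate numbers in the labels. With 4 libraries of each type, a difference that did not pass is not shown to be absent.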
